A study of Mus musculus with 8 samples.

Results

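The regions described here are 590 stretches of the mouse genome of at least 600 bp in which peaks of the RNA demethylase ALKBH5 were listed in all 4 immunoprecipitate libraries of an eCLIP experiment. All peaks of the 4 lists that shared at least 1 bp were merged, and a merged region was kept when each list had a peak in it and its merged width was 600 bp or more. This left 590 of 43029 merged regions (1.37%), and 29.2% of the 2022 regions with a peak in every list. The other 1432 regions with a peak in every list were narrower. The choice thus used peak positions and merged width, and not which genotype covered more of a region. The kept regions made up 63.7% of the merged length of the regions with a peak in every list, 851 kb.

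The study set mouse embryonic stem cells whose own ALKBH5 was made without the disordered tail at its C-terminus, the cIDR (genotype Alkbh5 del-cIDR), against cells that make the full-length protein (FL, genotype WT). Both are E14TG2a cells, a mouse embryonic stem cell line, grown in serum with LIF and the inhibitors PD0325901 and CHIR99021, crosslinked with UV light and fractionated to nuclei before library construction. Each genotype had 2 immunoprecipitates and 2 inputs, 8 samples in all, and only immunoprecipitates had peak lists used below. Separate cultures per replicate, and the number of clones per genotype, are not stated in the labels, so a p-value covers no more than the spread among these libraries, which may be technical. Read numbers per list are unknown. RNA abundance and binding cannot be told apart in the lists, and the inputs were not analysed here. All positions are in GRCm39. Genes, exons, introns and sequence under the regions, and the stem cell markers, were not analysed here, since no annotation or genome of that build was used.

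ALKBH5 is a nuclear dioxygenase that removes the methyl group of N6-methyladenosine, the commonest internal mark of messenger RNA. Its catalytic domain is folded, whereas its tails are intrinsically disordered, meaning that they hold no fixed structure and can make weak contacts with many partners. In CLIP, ultraviolet light joins a protein to RNA in contact with it, the protein is pulled down, and reads pile up where it was joined. A narrow peak marks contact at a short stretch, while a broad peak marks reads spread over a long stretch of a transcript. The series title concerns how disordered regions restrain the targets of demethylases. In regions with peaks of both protein forms, the stretches listed for each form can be set side by side.

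The peak lists of the 2 genotypes covered partly different stretches of the same regions. Del-cIDR peaks of replicates 1 and 2 covered a median of 592 and 660 bp per region, against 785 and 612 bp for full-length peaks of replicates 1 and 2. The order by library was thus not by genotype, since full-length replicate 2 lay between the del-cIDR replicates. The longest cover in any region was 3319 and 3432 bp in the del-cIDR libraries, against 11804 and 11660 bp in the full-length libraries. Summed over the regions, peaks covered 408 and 454 kb in the del-cIDR libraries, against 704 and 583 kb in the full-length libraries. The sums averaged 431 ± 32.1 kb in del-cIDR and 643 ± 85.2 kb in full-length (SD, n = 2 each), and the genotypes did not overlap (two-sided exact permutation p = 0.333, the smallest that 2 against 2 libraries allow).

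The share of a region that a library covered averaged 58.6% and 64.6% in the del-cIDR libraries, against 78.4% and 62.8% in the full-length libraries. The mean was 61.6% ± 4.25 in del-cIDR and 70.6% ± 11.0 in full-length (SD, n = 2 each). The difference of -8.99 percentage points was smaller than the spread of the full-length replicates (two-sided exact permutation p = 0.667). It was -1.22 percentage points without full-length replicate 1, -16.8 without full-length replicate 2 and -5.98 without del-cIDR replicate 1. From a width of 1000 bp it was -20.7. Full cover of the region by 1 library was listed for 33 and 41 regions in del-cIDR, against 134 and 1 in full-length. The full-length libraries therefore differed most from each other in this count. The regions held 724 and 733 peaks of the del-cIDR libraries, against 645 and 803 of the full-length libraries, so that full-length replicate 2 was split into the most pieces. Each list had a shortest allowed peak, of 300 and 301 bp in del-cIDR, against 297 and 243 bp in full-length. Cover within 1.1 times that length was found in 87 and 63 regions for del-cIDR, against 40 and 57 for full-length (12.7% ± 2.88 of the regions in del-cIDR and 8.22% ± 2.04 in full-length, SD, n = 2 each, two-sided exact permutation p = 0.333).

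Base by base, 47.3% of the merged length lay under peaks of both genotypes, 14.4% under del-cIDR peaks only and 38.3% under full-length peaks only. In the 1432 narrower shared regions 92.1% lay under both, 4.81% under del-cIDR peaks only and 3.07% under full-length peaks only. Without full-length replicate 1 the del-cIDR-only share was 25.6% and the full-length-only share 33.0%, so the size of the imbalance rests on that library, while its direction held. All 4 libraries covered the same base in 24.6% of the length, and in 56 regions they had no base in common. The full-length-only bases were concentrated in the widest regions, whose width is itself made from these peaks. The 89 regions of 2000 bp or wider held 15.1% of the del-cIDR-only bases and 62.5% of the full-length-only bases, whereas the 501 narrower ones held 84.9% of the del-cIDR-only and 37.5% of the full-length-only bases. The 10 widest alone held 0.15 kb of del-cIDR-only bases and 59.9 kb of full-length-only bases. Counted by region, the del-cIDR-only bases exceeded the full-length-only bases in 255 regions, and the reverse held in 334.

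By the outer span of each genotype's peaks, 153 regions (25.9%) had del-cIDR nested inside full-length, and 126 (21.4%) had full-length nested inside del-cIDR. Nested means that at least 95% of the bases of a genotype lay inside the span of the other and that its span was under 80% of the other's. The spans were nearly equal in 192 regions (32.5%), each holding at least 80% of the other, and staggered in 119 (20.2%).

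Covered length per region was set against genotype with limma on log2 bases over all 2022 regions with a peak in every list, with Benjamini-Hochberg adjustment. The median region of that fit had a log2 difference of 0.16, which follows the shortest allowed peaks, so log2 differences below are given relative to it. The p-values beside them are those of the fit before this shift. Among the 590 broad regions the median was -0.32, and 366 lay below 0. At an adjusted p under 0.05 del-cIDR cover was shorter in 172 broad regions (29.2%), where 8.56% of all tested regions passed, and longer in 99 (16.8%), where 5.39% of all tested passed. Covered length is limited by the merged width that chose these regions, and a region can be wide because 1 genotype covers much of it. The counts therefore describe the regions, and nothing is read from their excess over the share of all tested. The median log2 difference was -1.63 in the 172 and 1.03 in the 99, within a whole range of -4.95 to 2.50.

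The calls depended on single libraries. Without full-length replicate 2 no region passed in either direction (217 had an unadjusted p under 0.05, smallest adjusted p 0.0808), and limma without trend and robust settings gave 35 shorter and 22 longer without that library. Without full-length replicate 1 the count of shorter regions was 99. Without del-cIDR replicates 1 and 2 the counts of longer regions were 60 and 48. With each library centred on its median region before the fit, 162 were shorter and 61 longer. In a fit on the 902 regions with cover above the shortest peak in at least 1 library, 116 of the 172 and 50 of the 99 passed, where 12.9% and 5.76% of those tested did.

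With no model, both del-cIDR libraries lay below both full-length libraries in 236 broad regions (40%), where 14% of all regions in every list did, and above them in 168 (28.5%), where 68.2% did. Of the 1379 regions above, 1211 were narrow ones, where 83.7 to 84.99% of the regions were at the shortest allowed peak of a library. A gap of at least 1.5-fold between every library of 1 genotype and every library of the other was found in 145 broad regions with shorter del-cIDR cover, against 7.27% of all, and in 74 with longer del-cIDR cover, against 3.91% of all.

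**Figure D1:**
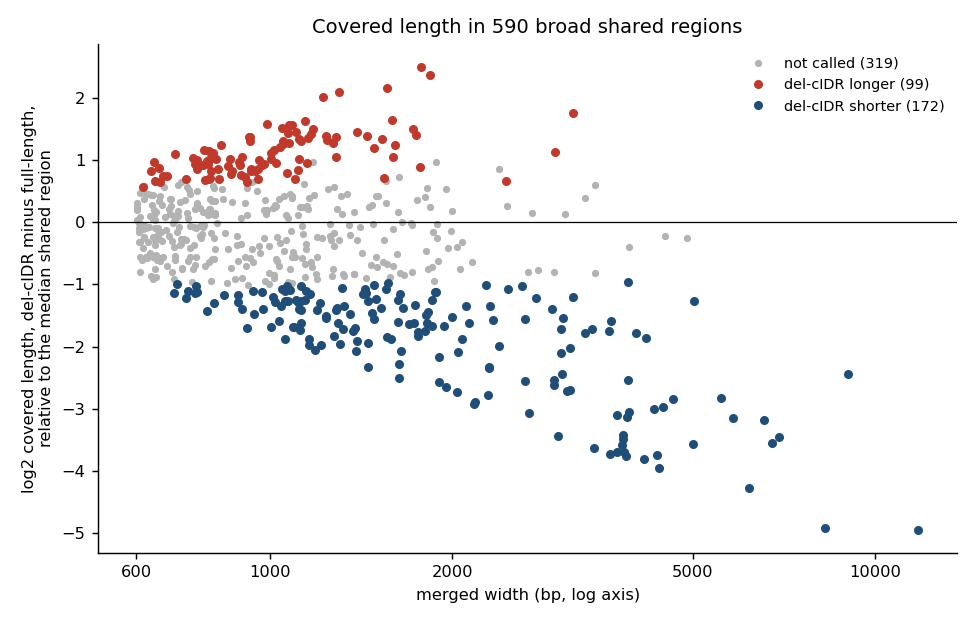
Log2 difference in covered length, del-cIDR minus full-length and relative to the median shared region (vertical axis), against merged width in bp (log axis) for the 590 regions. Red points are the 99 regions with longer del-cIDR cover, blue points the 172 with shorter del-cIDR cover and grey points the 319 not called; among regions of 2000 bp or wider 68 are blue and 3 are red.

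The direction went with width. Merged width is made from the same peaks whose length is compared, so part of this trend is fixed in advance. Del-cIDR cover reached no more than 3432 bp in any region, so the 10 widest regions are wide mainly through full-length peaks. The trend was not tested and is given as a description. In the 167 regions of 600 to 799 bp the median log2 difference was -0.06, with 8 called shorter and 24 called longer in del-cIDR. The 188 regions of 800 to 1199 bp had a median of -0.10, with 39 shorter and 51 longer. From 1200 to 1999 bp the median was -0.70 over 146 regions, with 57 shorter and 21 longer. In the 89 regions of 2000 bp or wider it was -2.03, with 68 shorter and 3 longer. There del-cIDR peaks covered a median of 20.3% and 25.3% of the region, against 99.8% and 88.2% for full-length peaks. The plot of the log2 difference by width shows this as a lower edge that drops with width. That edge is where del-cIDR cover sits at its shortest peak and full-length cover fills the region.

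The widest region lay on chromosome 19 from 8984997 to 8996800, 11804 bp. Del-cIDR peaks covered 457 and 396 bp of it, against 11804 and 11660 bp under full-length peaks (log2 difference -4.95 ± 0.28 SE, limma adjusted p = 2.85e-60). Both del-cIDR peaks lay near its right end, at 11193 to 11649 and 11151 to 11546 bp from the start, and the full-length summits lay at 9495 and 9503 bp. Its full-length peaks ranked 8 and 19 in their lists by −log10 q, while its del-cIDR peaks ranked 3630 and 8494. With a floor of 300 bp the limma adjusted p of this region was 0.000489. With each library centred on its median region it was 0.0039. The size of the p-value above thus depended on the processing, and so did that of the smallest p-values given for other regions below.

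Chromosome 4 from 141198402 to 141206670 had almost the same contrast. A single del-cIDR peak of 302 and 304 bp started at the same base in both replicates, against 8267 and 8209 bp of full-length cover (log2 difference -4.93 ± 0.29 SE, limma adjusted p = 4.73e-56). Here the del-cIDR peaks were well ranked, at 596 and 267, with 5.74-fold and 16.2-fold enrichment by the authors' own values. The full-length summit lay at 7955 bp in replicate 1 but at 1732 bp in replicate 2, where it fell inside the stretch under the del-cIDR peaks.

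On chromosome 17 from 24034107 to 24043143 the del-cIDR peaks covered 1500 and 2171 bp, against 9037 and 8501 bp of full-length cover (log2 difference -2.44 ± 0.26 SE, limma adjusted p = 3.57e-16). The best del-cIDR summits lay at 7896 and 8742 bp from the start, against 1121 and 1079 bp for full-length, so that the strongest signal of each form was at opposite ends of the region. Chromosome 12 from 3550015 to 3556947 had 682 and 677 bp of del-cIDR cover, against 6933 and 6430 bp of full-length cover (log2 difference -3.46 ± 0.28 SE, limma adjusted p = 4.90e-29). Its del-cIDR peaks did not overlap between replicates, and they ranked 13382 and 18678 in their lists. Being listed in all 4 libraries therefore did not always mean a shared stretch. When length was taken from the first to the last covered base, gaps included, neither region passed the test (unshifted log2 difference -1.20 on chromosome 17 and -2.44 on chromosome 12, limma adjusted p = 0.485 for both).

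Of the remaining regions among the 10 widest, chromosome 8 from 123616102 to 123622868 also had no base common to all 4 libraries, with 795 and 510 bp of del-cIDR cover against 6765 and 6662 bp of full-length cover. Chromosome 13 from 55459773 to 55466339 was the only one of the 10 with del-cIDR bases outside full-length cover, 150 of them. Chromosome 16 from 91451532 to 91457729 had 422 and 301 bp of del-cIDR cover, against 6198 and 6142 bp of full-length cover. On chromosome 1 from 34227067 to 34232894 del-cIDR peaks covered 844 and 634 bp, against 5828 and 5761 bp under full-length peaks, yet the summits lay together, at 3129 and 3162 bp in del-cIDR, against 3119 and 3116 bp in full-length. The region on chromosome 1 from 136552420 to 136557987 had 930 and 757 bp of del-cIDR cover, against 5568 and 5072 bp of full-length cover. Chromosome 10 from 4303171 to 4308195 had the smallest contrast of the 10, with 2221 and 2436 bp of del-cIDR cover against 5025 and 4938 bp of full-length cover (log2 difference -1.26 ± 0.27 SE, limma adjusted p = 0.000531). All 10 had a full-length cover that exceeded the del-cIDR cover in every pairing of libraries. The choice by merged width bears on this, so nothing is read from it.

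Another 4 regions had a single short del-cIDR peak per library inside a full-length stretch of about the whole region. Chromosome X from 101185936 to 101190339 had 301 and 301 bp of del-cIDR cover, against 4364 and 3970 bp of full-length cover. Chromosome 10 from 127577430 to 127581308 had 300 and 301 bp in del-cIDR, against 3879 and 3404 bp in full-length. At both places del-cIDR cover was at or within 1 bp of the shortest length its lists allow. Chromosome 1 from 118761732 to 118765879 had 359 and 302 bp in del-cIDR, against 4148 and 4073 bp in full-length, and its del-cIDR peaks did not overlap each other. Chromosome 2 from 168022801 to 168027167 had 321 and 401 bp in del-cIDR, against 4367 and 4247 bp in full-length.

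**Figure D2:**
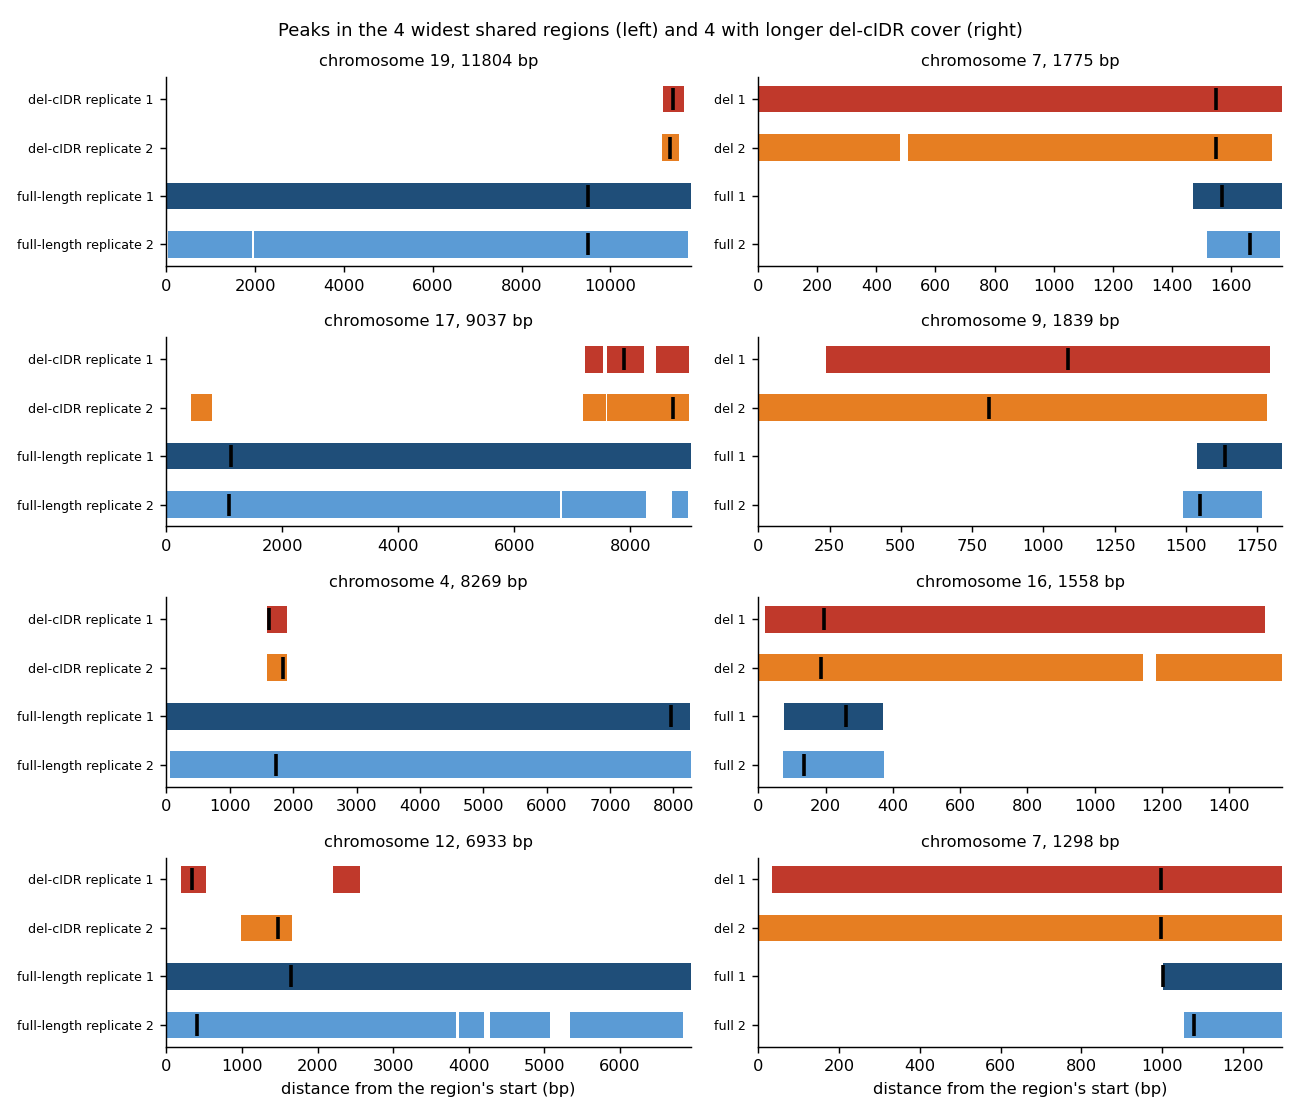
Peaks (bars) and best summits (black ticks) of the 2 del-cIDR libraries (upper rows of each panel) and the 2 full-length libraries (lower rows), by distance in bp from the start of the region. In the 4 widest regions (left) del-cIDR peaks cover 302 to 2171 bp and full-length peaks 6430 to 11804 bp; in 4 regions with longer del-cIDR cover (right) del-cIDR peaks cover 1264 to 1785 bp and full-length peaks 243 to 304 bp.

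The regions with longer del-cIDR cover were smaller and the mirror image in form. The largest log2 difference was on chromosome 7 from 78793264 to 78795038, where del-cIDR peaks covered 1771 and 1713 bp, against 304 and 250 bp under full-length peaks (log2 difference 2.50 ± 0.31 SE, limma adjusted p = 2.19e-15). Its summits lay close together, at 1551 and 1551 bp in del-cIDR, against 1570 and 1665 bp in full-length, so the del-cIDR cover extended to one side of a common point. Chromosome 7 from 100940363 to 100941660 had 1264 and 1298 bp of del-cIDR cover, against 297 and 243 bp of full-length cover, the shortest lengths those 2 lists allow. Its summits were at 998 and 998 bp in del-cIDR, against 1001 and 1079 bp in full-length. Chromosome 16 from 8648100 to 8649657 had 1486 and 1520 bp in del-cIDR, against 297 and 301 bp in full-length.

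At a pair of regions on chromosome 1 the summits also lay apart, with no shift past the test. On chromosome 1 from 134338437 to 134339661 the cover was 1205 and 1225 bp in del-cIDR, against 297 and 245 bp in full-length, with summits at 321 and 248 bp in del-cIDR, against 949 and 926 bp in full-length. Chromosome 1 from 86454658 to 86457820 was the widest of the 8 named for longer del-cIDR cover, with 3163 and 3040 bp in del-cIDR, against 918 and 729 bp in full-length (log2 difference 1.76 ± 0.29 SE, limma adjusted p = 1.26e-09). From the first to the last covered base, gaps included, the unshifted log2 difference there was 0.32 and did not pass (limma adjusted p = 0.485). Its del-cIDR peaks ranked 999 and 942, while its full-length peaks ranked 4343 and 5094. The other 3 were chromosome 9 from 108377741 to 108379579, chromosome 8 from 85763733 to 85765323 and chromosome 11 from 97568899 to 97570041. They had del-cIDR cover of 986 to 1785 bp and full-length cover of 273 to 572 bp. Summits lay at 1088 and 809 bp in del-cIDR, against 1638 and 1551 bp in full-length, on chromosome 9. They overlapped between genotypes on chromosome 8, at 1060 and 287 bp in del-cIDR, against 866 and 912 bp in full-length. They overlapped on chromosome 11 too, at 549 and 542 bp in del-cIDR, against 570 and 515 bp in full-length.

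Each direction was next read in libraries that the choice had not used. Regions were chosen on the replicate 1 lists alone, by a peak of each genotype and a merged width of at least 600 bp. This gave 602 regions with shorter and 292 with longer del-cIDR cover, of which 358 and 159 had peaks of both genotypes in replicate 2 and could be read there. Of the 358, 250 (69.8%) had the same direction in replicate 2, and of the 159, 150 (94.3%) did. With the replicates exchanged, 355 regions had shorter and 365 longer del-cIDR cover, and 198 and 252 could be read in replicate 1. Of the 198, 189 (95.5%) had the same direction there, and of the 252, 160 (63.5%) did. Among regions that could be read, the direction repeated less often changed with the replicate, and the others had no peak of one genotype or of both in the other replicate. The shortest allowed peaks of del-cIDR and full-length were 301 and 243 bp in replicate 2, against 300 and 297 bp in replicate 1. Full-length replicate 1 also had the longest median cover. How far the shares follow these offsets between libraries was not tested, and no share over all readable regions stands beside them.

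**Figure D3:**
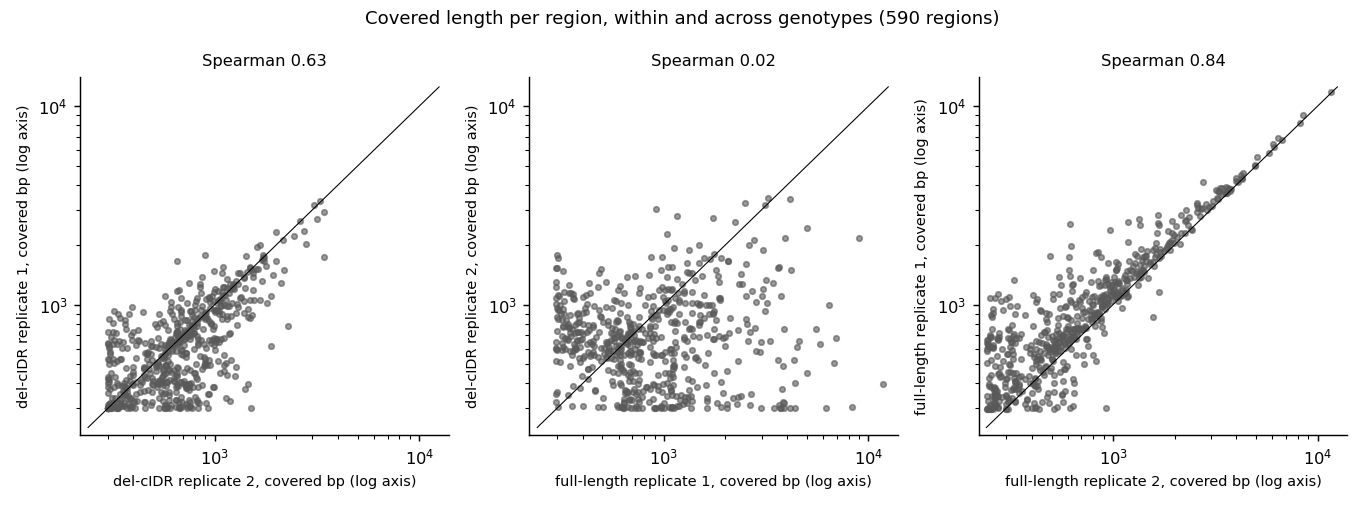
Covered length in bp (log axes) of the 590 regions for the del-cIDR pair (left), del-cIDR replicate 2 against full-length replicate 1 (middle) and the full-length pair (right). Points follow the line of equality within genotypes (Spearman 0.63 and 0.84), and scatter away from it across genotypes (Spearman 0.02).

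Across the 590 regions the covered length of 1 del-cIDR replicate went with that of the other (Spearman 0.63), as did that of the full-length replicates (Spearman 0.84), while the 4 pairs across genotypes gave -0.01 to 0.04. The ranks of the best peaks gave 0.72 in del-cIDR and 0.85 in full-length, against 0.21 to 0.32 across. These are descriptions over regions that share libraries. The choice by merged width leaves out regions that are short in both genotypes, and it bears on these values.

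Summits, taken as the summit of the best peak of a library in a region, lay closer within a genotype than across. The median distance was 47 bp between the del-cIDR replicates and 56 bp between the full-length replicates, against 101.5 to 107.5 bp for the 4 pairs across genotypes. In the narrower shared regions, where there is less room, the medians were 32.5 and 44 bp within genotypes and 35 to 45 bp across. The excess of the distance across genotypes was largest in the widest regions. From 2000 bp the median distance was 794 to 988 bp across genotypes, against 110 bp between the del-cIDR replicates and 55 bp between the full-length replicates. From 600 to 799 bp it was 34 to 63 bp across genotypes, against 24 bp between the del-cIDR replicates and 52 bp between the full-length replicates. In those regions the full-length replicates were thus no closer to each other than some pairs across genotypes. In 138 regions (23.4%) every pair across genotypes was farther apart than both pairs within, where this held in 12.7% of all regions in every list. All 4 summits lay within 50 bp in 74 regions (12.5%), against 334 (23.3%) of the narrower shared regions.

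**Figure D4:**
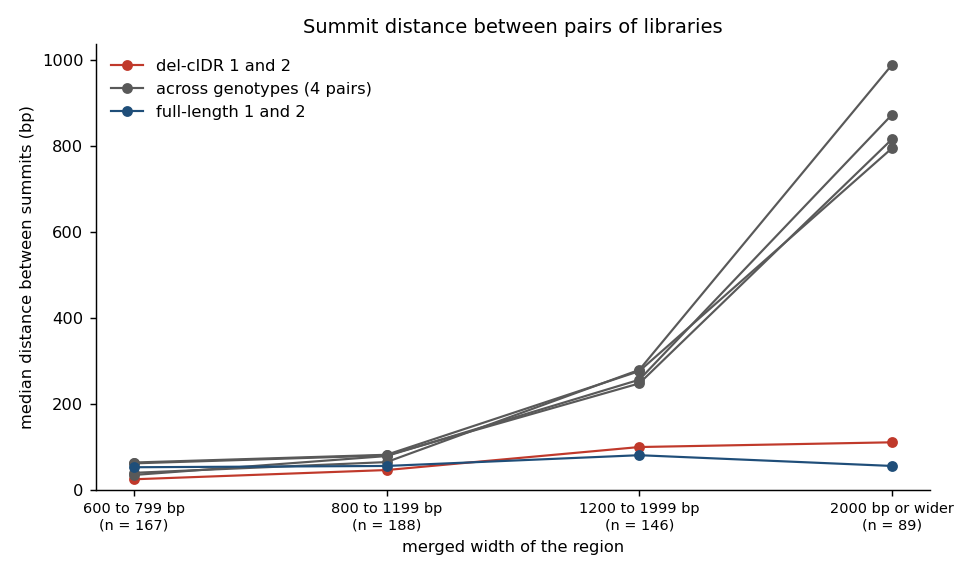
Median distance in bp between the summits of 2 libraries, by merged width of the region, for the del-cIDR pair (red), the 4 pairs across genotypes (grey) and the full-length pair (blue). In regions of 2000 bp or wider the pairs across genotypes are at 794 to 988 bp, the del-cIDR pair at 110 bp and the full-length pair at 55 bp.

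Per region, no summit shift passed an adjusted p under 0.05 in limma (0% of all tested). An unadjusted p under 0.05 was found in 122 broad regions, where 9.79% of all tested had one, and the smallest adjusted p of any broad region was 0.0567. Without a test, summits did not overlap between genotypes in 296 broad regions (50.2%), where 42.2% of all regions in every list did not, so this count lies near the background. A gap of at least 100 bp between the genotypes was found in 146 (24.7%), where 8.7% of all had one, and a gap of at least 500 bp in 63 (10.7%), where 3.12% of all did. Regions under 600 bp have almost no room for the larger gap, and none of them had one. When the midpoint of the best peak was tested in place of its summit, 162 broad regions passed, where 8.85% of all tested did.

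The 8 regions with the smallest adjusted p for the summit all had 0.0567 and are given as values. The largest shift was that of chromosome 17 from 24034107 described above, 7219 ± 526 bp (SE). On chromosome 9 from 107922167 to 107926088 the summits lay at 121 and 146 bp in del-cIDR, against 3402 and 3382 bp in full-length. Its cover was 1743 and 3432 bp in del-cIDR, against 3231 and 2563 bp in full-length, a difference that did not pass the test (limma adjusted p = 0.483), so the summits lay far apart in a region of no called difference in length. Chromosome 6 from 127062989 to 127064878 was of the same kind, with cover of 1381 and 1385 bp in del-cIDR, against 1531 and 1048 bp in full-length, and summits at 1618 and 1549 bp in del-cIDR, against 202 and 212 bp in full-length. Chromosome 7 from 144415292 to 144418252 had summits at 126 and 128 bp in del-cIDR, against 2265 and 2219 bp in full-length. The other 4 were the region on chromosome 1 from 86454658 and chromosome 15 from 102121124 to 102124173, chromosome 15 from 88747699 to 88750091 and chromosome 17 from 71224381 to 71226126, with shifts of -2293, 1833, -1447.5 and -1206 bp along the genome. In all 8 the summits of a genotype's replicates lay closer to each other than to any summit of the other genotype. The choice by smallest p favours this pattern, so nothing is read from it.

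The summit of one form mostly lay under peaks of the other. The del-cIDR summits of replicates 1 and 2 lay inside full-length cover in 90.7% and 90.5% of the regions, and the full-length summits inside del-cIDR cover in 86.1% and 87.6%. In the narrower shared regions these shares were higher, 99.2 to 99.8%. Regions were merged from overlapping peaks, which favours high shares in both sets. In the 172 regions with shorter del-cIDR cover the full-length summits lay inside del-cIDR cover in 67.4% and 68.6%, although del-cIDR cover was a median of 40.9% of the full-length cover in length. In the 99 regions with longer del-cIDR cover 98.99% of the full-length summits of either replicate lay inside del-cIDR cover. Del-cIDR peaks of replicates 1 and 2 covered a median of 92.3% and 94.8% of these regions, so most places in them lay inside. The del-cIDR summits of replicates 1 and 2 lay inside full-length cover in 77.8% and 73.7% of the 99 regions. In the 172 regions they did so in 97.7% for either replicate.

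By the authors' own enrichment values the broad regions were modest, and their place within the lists differed by genotype. Their best peaks had a median fold enrichment of 2.43 and 2.49 in the del-cIDR lists, where the narrower shared regions had 12.4 and 12.2. In the full-length lists the medians were 3.14 and 2.87, where the narrower shared regions had 4.58 and 5.76. Fold enrichment is relative to the background of each list, so it is read within a list only. Among the 2000 best peaks of a list, 9.66% and 10.3% of the broad regions had a place in del-cIDR, against 29.0% and 22.5% in full-length, while the narrower shared regions had 65.5% and 64.5% in del-cIDR, against 19.3% and 33.9% in full-length. Thus the broad regions stood below the narrower ones in both del-cIDR lists and above them in full-length replicate 1 only. Only 23 broad regions were among the best 2000 of every list.

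The regions with shorter del-cIDR cover had a median rank of 8738.5 and 9808 in the del-cIDR lists, against 1724.5 and 2409 in the full-length lists. Those with longer del-cIDR cover had 4522 and 4341 in the del-cIDR lists, against 7271 and 6372 in the full-length lists. Between these called groups, the one with longer cover in a list thus had the better median rank there. This did not hold for all shared regions. In the del-cIDR lists the narrower ones covered a median of 300 and 301 bp and had median ranks of 1133 and 1149. The broad ones covered 592 and 660 bp there and had median ranks of 6776.5 and 6600.

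None of the 5 regions with the best mean rank was called shorter in del-cIDR, and 2 of them were called longer in a way that depended on the processing. Of all 590 regions 29.2% were called shorter and 16.8% longer. Those called shorter mostly ranked low in the del-cIDR lists, so a choice by mean rank disfavours them and nothing is read from these counts. The first of the 5 was on the mitochondrial chromosome from 195 to 1171, with ranks 8 and 11 in del-cIDR, against 2 and 6 in full-length. Its summits nearly coincided in all 4 libraries, at 443 and 444 bp in del-cIDR, against 440 and 449 bp in full-length. Del-cIDR peaks covered 977 and 614 bp of it, against 368 and 357 bp under full-length peaks (log2 difference 0.93 ± 0.31 SE, limma adjusted p = 0.0040). The difference did not pass with each library centred (adjusted p = 0.0704), with a floor of 300 bp (0.0538), on regions above the shortest peak (0.0754) or when a library other than del-cIDR replicate 2 was left out (0.127 to 0.513). Also among the 5 were a pair of neighbours on chromosome 2, from 22477054 to 22477853 with ranks 84 and 113 in del-cIDR, against 89 and 57 in full-length, and from 22477963 to 22479029 with ranks 105 and 129 in del-cIDR, against 454 and 499 in full-length. The second of them had 1054 and 1056 bp of del-cIDR cover, against 569 and 524 bp of full-length cover (log2 difference 0.79 ± 0.31 SE, limma adjusted p = 0.0193). It did not pass with the replicate block (adjusted p = 0.102), with the widest single peak (0.102), with a floor of 300 bp (0.0553), with merging within 100 bp (0.0508), on regions above the shortest peak (0.0504) or when a library other than full-length replicate 1 was left out (0.0808 to 0.202). Chromosome 19 from 5849481 to 5851284 had ranks 107 and 229 in del-cIDR, against 69 and 20 in full-length, with 1735 and 1732 bp of del-cIDR cover and 862 and 1568 bp of full-length cover. Chromosome 1 from 24654433 to 24655241 had ranks 34 and 77 in del-cIDR, against 258 and 84 in full-length.

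The mitochondrial chromosome, whose RNA is made in mitochondria, outside the nucleus, and whose ribosomal RNA genes lie near the start of its numbering, held 3 broad regions. That is 0.508% of the broad regions, against 0.0698% of the narrower shared regions and 0.0232% of all merged regions. The library RNA came from isolated nuclei, and what part mitochondrial RNA has in these lists was not tested. From 9839 to 11556 cover was nearly complete in every library, 1718 and 1717 bp in del-cIDR, against 1570 and 1581 bp in full-length, and this region had the largest part covered by all 4 libraries, 91.4%. From 11593 to 13666 cover was 1987 and 1663 bp in del-cIDR, against 2048 and 1993 bp in full-length, a difference that did not pass the test (limma adjusted p = 0.647).

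The next 4 regions by the part that all libraries shared were chromosome 16 from 32462898 to 32464028 with 89.0%, chromosome 8 from 85782249 to 85783130 and chromosome 14 from 54880920 to 54881549 with 88.1% each, and chromosome 12 from 17328616 to 17329234 with 86.4%. On chromosome 16 the cover was 1075 and 1074 bp in del-cIDR, against 1131 and 1062 bp in full-length. Cover of 600 bp or more in each library was found in 118 of the 590 regions (20%).

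Regions listed for one form alone lay most often near the broad shared regions of matching direction. A region with peaks in both del-cIDR lists and neither full-length list lay within 5 kb of 36 (20.9%) of those with shorter del-cIDR cover, of 45 (45.5%) of those with longer del-cIDR cover and of 120 (37.6%) of those not called. A region with peaks in both full-length lists and neither del-cIDR list lay within 5 kb of 86 (50%) of the 172 regions with shorter del-cIDR cover, of 16 (16.2%) of the 99 with longer del-cIDR cover and of 85 (26.6%) of the regions not called. In the narrower shared regions each kind of neighbour was found at 7.89%. These are counts with no test, over regions of which 118 lie within 10 kb of another broad one. Calls and neighbours come from the same 4 lists, so a match between them is not independent. Full-length-only neighbours also went with width, at 25.7% of the regions of 600 to 799 bp and 50.6% of those of 2000 bp or wider. Del-cIDR-only neighbours were at 25.1% and 31.5% of these. No share over all merged regions stands beside the counts, and nothing is read from the match.

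**Figure D5:**
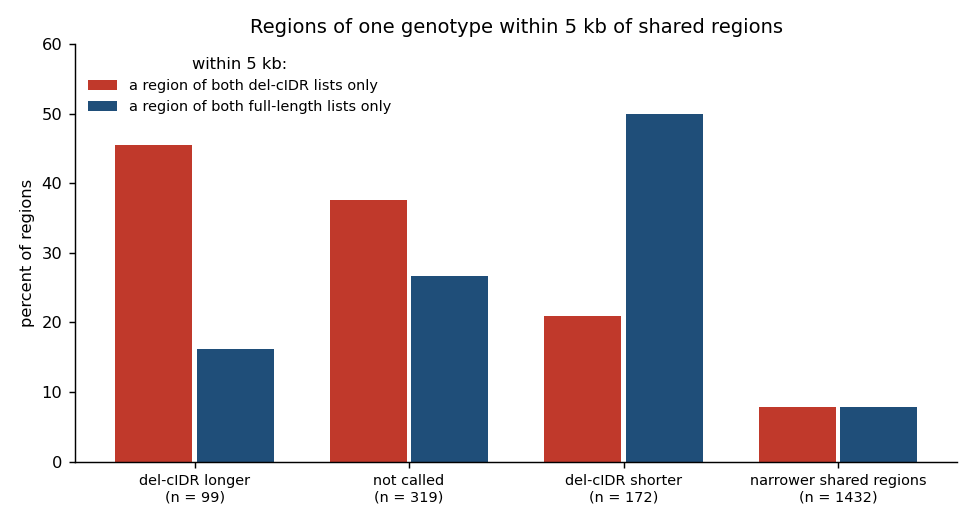
Percent of shared regions with a region of both del-cIDR lists only (red) or of both full-length lists only (blue) within 5 kb, for the 99 broad regions with longer del-cIDR cover, the 319 not called, the 172 with shorter del-cIDR cover and the 1432 narrower shared regions. Del-cIDR-only neighbours reach 45.5% in the first group, and full-length-only neighbours reach 50% in the third.

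By chromosome the broad regions were most numerous on chromosome 11, with 60 (10.2%, against 6.28% of the narrower shared regions and 7.23% of all merged regions). Chromosomes 2, 7 and 17 followed with 50, 48 and 47 (8.47%, 8.14% and 7.97%, against 8.16%, 6.90% and 5.02% of all merged regions). Chromosome 19 held 31 of them (5.25%, against 1.96% of the narrower shared regions and 2.75% of all merged regions). On chromosome 3, with 30 broad regions (5.08%, against 4.59% of all merged regions), 14 had shorter and 3 longer del-cIDR cover. On chromosome 11 there were 14 with shorter and 16 with longer del-cIDR cover. Over all chromosomes 172 were shorter and 99 longer, and single chromosomes were not tested against that. The 2 broad regions on an unplaced scaffold of the assembly (0.339%, against 0.00697% of all merged regions) both had shorter del-cIDR cover.

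The width limit cut through regions of like form. The 3 just inside it were chromosome 5 from 25581657 to 25582258 and chromosome 9 from 121585340 to 121585941, each 602 bp wide, and chromosome 19 from 8690435 to 8691037, 603 bp wide. Just outside it lay chromosome X from 20565695 to 20566293, 599 bp wide, and chromosome 7 from 35501759 to 35502356 and chromosome 2 from 122044785 to 122045382, each 598 bp wide. Del-cIDR peaks covered 433 to 603 bp of the 3 inside, against 333 to 492 bp under full-length peaks. Of the 3 outside, del-cIDR peaks covered 371 to 587 bp, against 245 to 372 bp under full-length peaks.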

How the data were processed

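Peak lists of 4 ALKBH5 immunoprecipitates (2 del-cIDR, 2 full-length) were analysed. The tools named in the submitters' processing notes are MACS2, STAR, cutadapt and UMI-tools, and the build is GRCm39. Versions, settings and any control given to the peak caller were not given in these sources. Peaks had been called per library. Lists marked wt were used as full-length, and lists marked KI as del-cIDR, the only mutant genotype of the series. Besides positions and summit offsets in bases, which are of another kind than the units that follow, the authors deposited a fold enrichment (a ratio over the caller's background) and a −log10 q-value per peak. Peaks carried no strand.

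Peaks sharing at least 1 bp were merged, and the best peak of a library in a region was that with the highest −log10 q. Covered bases (log2) and summit offsets were tested with limma 3.58.1 in R 4.3.3 (lmFit, and eBayes with a variance trend and robust) over all 2022 regions in every list. Single values per library were compared with an exact permutation test. The tests were also run on simulated data, and no result given here rests on that run. Many narrow regions sit at the shortest peak of every list, which sets a nearly constant difference between the full-length replicates and with it the spread in the fit of covered length. A fit without those regions was therefore added after seeing the data.

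The regions, rules and lists were chosen with earlier results of these data known. Named are the 10 widest regions, 8 per direction with the smallest adjusted p for covered length and no overlap between genotypes, 8 by summit, 5 by mean rank, 5 by the part shared by all libraries, those of the mitochondrial chromosome and 3 on either side of the width limit. Alternatives were peaks with −log10 q from 5 up, peaks with fold enrichment from 4 up, lists of equal length, merging within 100 bp, widths of 500 and 1000 bp, an overlap of 50%, a floor of 300 bp, centring, peak midpoints, each replicate left out and a replicate block. Gene annotation and sequence of GRCm39 were not used here.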

Additional observations from a re-analysis of the deposited data

How the results depend on the processing

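No named difference that passed the test changed sign under the alternatives run, but some differences near 0 that did not pass did. For chromosome 16 from 32462898 the unshifted log2 difference was -0.03, and 0.36 with the widest single peak, and for the mitochondrial region from 11593 it was -0.15, and 0.07. Values for 3 others of the regions with the largest shared part turned below 0 with merging within 100 bp or centring, those on chromosome 14 (0.09, and -0.17 merged), chromosome 12 (0.12, and -0.04 centred) and the mitochondrial region from 9839 (0.12, -0.02 merged and -0.04 centred). With peaks of at least 4-fold enrichment there were 11 broad regions, with 7 shorter and 1 longer in del-cIDR, 4.81% of bases del-cIDR only, 81.6% full-length only, and summit distances of 99.5 bp across and 94 bp within genotypes. From 1000 bp there were 337 regions, with 48 longer in del-cIDR, 45.3% of bases full-length only, and 275.5 bp across and 73 bp within. From 500 bp the distances were 73.25 and 42.5 bp, with a −log10 q of at least 5 they were 89.5 and 45 bp, and with peak midpoints 203 and 74 bp. Distances across were 94.5 bp with equal lists, 123 bp with merging within 100 bp and 97.25 bp with 50% overlap. Called summit shifts, 0 in the report, numbered 35 with a −log10 q of at least 5, 34 with equal lists, 20 with merging within 100 bp, 59 in limma without trend and robust, and 162 with midpoints. Longer calls numbered 60 with a floor of 300 bp (122 shorter), 61 with each library centred (162 shorter) and, chosen after seeing the data, 50 above the shortest peak. Leaving out each replicate gave 0 to 153 shorter and 0 to 96 longer calls, 0 to 1 summit calls, 11.1 to 25.6% of bases del-cIDR only and 33.0 to 50.2% full-length only. In these fits the lone replicate is assumed to vary like the other genotype. Also chosen after seeing the data, limma without trend, robust and full-length replicate 2 gave 35 shorter and 22 longer. The deviations of same-numbered replicates had a correlation of -0.122 over all tested regions. Many of these regions sit at the shortest allowed peak, so this value cannot tell whether replicate numbers pair the samples. The replicate block gave 141 shorter and 73 longer calls and 0 summit calls, and a crossed replicate block, added after seeing the data, gave 183 and 108. The cause of these changes was not tested. Read depth is unknown and limits how far peak length can be compared.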
